A study of Mus with 10 samples.

Results

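The transcripts of 9 genes whose proteins act upstream of NF-κB were examined in liver type 1 innate lymphoid cells (ILC1s) with and without NKp46. The genes were chosen by name from the deposited count table, where all 9 of them were found among 24564 genes. They were *Chuk*, *Ikbkb* and *Ikbkg* of the IκB kinase (IKK) complex, *Bcl10* and *Malt1* of the CARD-BCL10-MALT1 (CBM) complex, *Tnfaip3* (A20) and *Tnip1* (ABIN1), and *Traf2* and *Traf6*. None of the 9 passed the test for a difference between the genotypes. *Tnfaip3* came nearest, with a mean level in NKp46-deficient ILC1s that was 72.5% of that in control ILC1s.

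NF-κB is a family of transcription factors held in the cytoplasm by IκB proteins. The IKK complex phosphorylates IκB, which is then degraded, and the freed factors enter the nucleus. TRAF ubiquitin ligases and the CBM complex carry signals from receptors to IKK by building ubiquitin chains, and A20 with its partner ABIN1 acts on such chains to end the signal. *Tnfaip3* is itself a well-known NF-κB target gene, so that A20 forms a negative feedback loop. In lymphocytes, receptors that signal through ITAM motifs can reach IKK through the CBM complex, and NKp46 is a receptor that pairs with ITAM adaptors.

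RNA was sequenced from 5 Ncr1-KO and 5 Ncr1-WT libraries of ILC1s sorted from the livers of C57BL/6 mice that were untreated as far as the sources state. Ncr1-KO mice are *Ncr1* gfp/gfp, in which gfp replaces *Ncr1*, the gene of NKp46, and Ncr1-WT mice are *Ncr1* +/+ animals. The methods state that the Ncr1-WT mice were bought from a vendor, and the reporting summary states this of both genotypes. Mice of both genotypes were 6 to 8 weeks old and male or female by the methods. The reporting summary also gives a wider age range. Whether the mice were littermates is not stated in either source. Ncr1-WT ILC1s were gated as negative for lineage markers and CD49b and positive for NK1.1, CD49a and NKp46, whereas Ncr1-KO ILC1s were gated with GFP in place of NKp46, so that the gate differed together with the genotype. The sources do not say whether a library came from a single mouse, and a figure legend speaks of RNA pools, so the p-values measure the spread between these libraries, which may be partly technical.

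Total counts per library ranged from 15796253 to 22623133. Levels are given as CPM, the counts of a gene per 1000000 counts of its library, after TMM normalization, which corrects library totals for composition. *Ncr1* itself had 141 to 356 CPM in Ncr1-KO and 1913 to 2144 CPM in Ncr1-WT libraries, so that the transcript followed the labels in all 10. The 7 ILC1 markers found in the table summed to between 3973 and 4271 CPM in all 10 libraries, and the most abundant was *Klrb1c*, the gene of NK1.1, at 1194 to 1398 CPM. Of these 7, *Il7r* was called lower in Ncr1-KO ILC1s, with a mean of 84.6 CPM against 166 CPM in Ncr1-WT ILC1s. Markers of B cells, Kupffer cells, neutrophils, hepatocytes and erythroid cells summed to at most 5.99, 30.0, 10.5, 54.3 and 9.14 CPM in any library. The most abundant gene of these lists was *Cd79b*, *Csf1r*, *S100a9*, *Alb* and *Alas2*, respectively. *Retnlg* of the neutrophil list, *Lyve1* of the endothelial list and *Hba-a1*, *Hbb-bs* and *Hbb-bt* of the erythroid list were at 0 counts in every library. Liver endothelial markers summed to 113 to 151 CPM, of which *Pecam1* made up all but at most 2.28 CPM. T cell markers summed to 633 to 835 CPM in Ncr1-KO and 461 to 579 CPM in Ncr1-WT libraries, mostly *Cd3g*, and NK cell markers to 140 to 217 and 103 to 127 CPM, led by *Itgam*. *Cd3e*, *Cd8a* and *Itgam* were called higher in Ncr1-KO ILC1s, and their part in the results below was not tested.

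All 9 genes were well above the limit of detection. The lowest count of any of them in any library was 887, for *Bcl10*. To compare genes with each other, CPM were divided by the exon length of each gene in the table, giving CPM per kilobase of exon (RPKM). Because this length joins the exons of all isoforms, it can understate the level of a gene with long alternative exons.

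On this scale of level per length, *Tnfaip3* was highest, at 73.4 ± 20.1 RPKM over the 10 libraries (SD), above 93.8% of the 11463 tested genes. *Ikbkb*, the kinase subunit of IKK that serves most inflammatory signals, followed at 52.1 ± 2.65, and *Malt1*, the protease of the CBM complex, at 43.8 ± 3.84. The middle of the order was held by *Bcl10*, the adaptor that joins MALT1 to its CARD scaffold, at 30.9 ± 2.97, by *Tnip1* at 26.8 ± 2.95, by *Traf2* at 26.6 ± 1.97 and by *Chuk*, the IKKα subunit, at 23.5 ± 2.46. Neighbours among these middle genes did not differ beyond their spread. *Traf6* had 18.7 ± 1.41, with *Chuk* above it in all 10 libraries although the ranges of the genes touched. *Ikbkg*, the regulatory subunit also called NEMO, was lowest at 12.1 ± 0.95, still above 51.8% of tested genes. Its range of 10.4 to 13.3 did not overlap that of *Traf6*, and the range of *Malt1* did not overlap that of *Bcl10*.

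**Figure D1:**
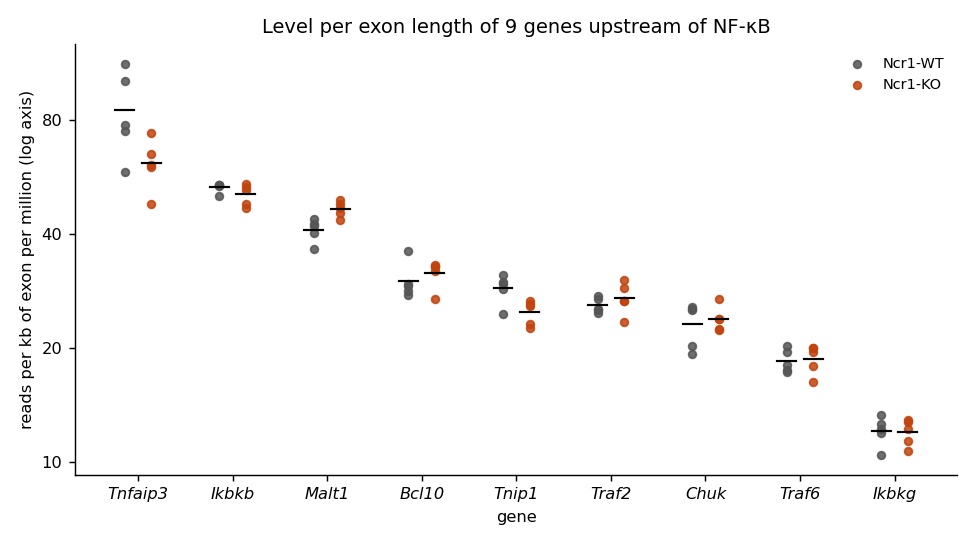
Level of each gene in CPM per kilobase of exon (RPKM, log axis), ordered by the mean over 10 libraries. Each point is a library, grey for Ncr1-WT and orange for Ncr1-KO, and each bar is the mean of 5 libraries. *Tnfaip3* is highest and most spread, and *Ikbkg* is lowest.

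The order changed little with genotype. In Ncr1-WT ILC1s, *Tnfaip3* lay above *Ikbkb* in all 5 libraries without overlap (58.3 to 113 against 50.5 to 54.1 RPKM). In Ncr1-KO ILC1s the ranges overlapped (48.0 to 74.1 against 47.0 to 54.4), and *Tnfaip3* was above *Ikbkb* in 4 of 5 libraries. *Tnip1* had rank 5 and *Traf2* rank 6 in Ncr1-WT ILC1s, and the reverse in Ncr1-KO ILC1s, with overlapping ranges in both.

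The question put to the 9 genes was whether the transcripts of the machinery upstream of NF-κB differ when NKp46 is absent. The quasi-likelihood test of edgeR was run on all 11463 genes that passed the filter on low counts, and a gene was called at a Benjamini-Hochberg adjusted p under 0.05 with a fold change above 1.5 or below 0.7. All 9 passed the filter. Of them, 0 were called, where 0.733% of all tested genes were (0.532% lower and 0.201% higher). An adjusted p under 0.05 was likewise met by 0 of the 9, where 1.35% of tested genes met it (0.785% lower and 0.567% higher). At an unadjusted p under 0.05 there were 3 of the 9, *Tnfaip3* and *Tnip1* with lower and *Malt1* with higher values in Ncr1-KO ILC1s, against 11.4% of tested genes (5.91% lower and 5.46% higher). The log2 fold change was below 0 for 4 genes and above 0 for 5. Its median was 0.02, beside 0.00 for all tested genes. None of the 9 had CPM that separated the genotypes without overlap, where 3.11% of tested genes did. In bulk RNA, fewer cells carrying a transcript and less of it per cell cannot be told apart.

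**Figure D2:**
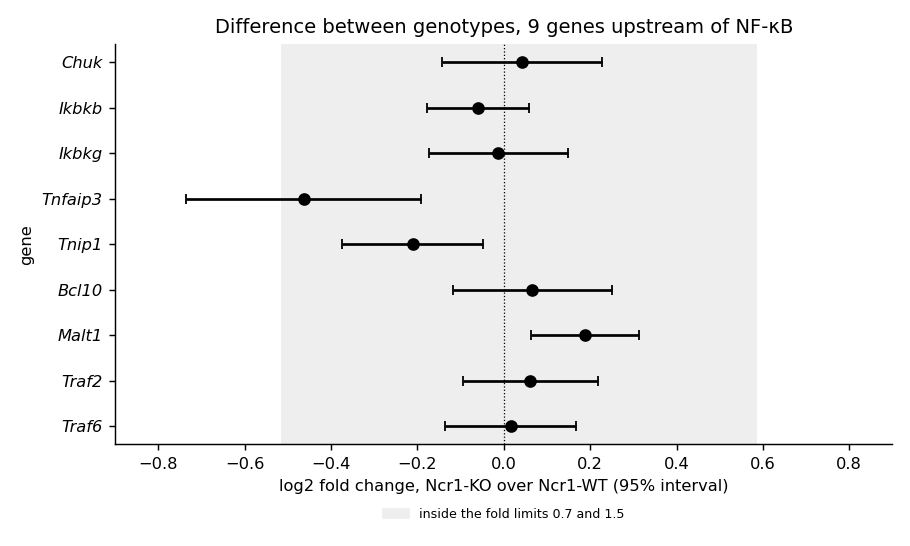
Log2 fold change of each gene in Ncr1-KO over Ncr1-WT ILC1s, with 95% intervals from edgeR's quasi-likelihood fit (5 libraries each). The grey band spans the fold limits of 0.7 and 1.5. The interval of *Tnfaip3* crosses the lower limit, and the other 8 lie inside the band.

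The 95% intervals give, for each gene by itself, a range for the difference that rests on the spread between these libraries. For 8 of the 9 genes the whole interval lay between the fold limits of 0.7 and 1.5, so that a difference as large as the call requires was outside it. The exception was *Tnfaip3*, whose fold change had an interval of 0.600 to 0.876.

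*Tnfaip3* encodes A20, a ubiquitin-editing enzyme that shuts off IKK activation. The table lists it at chr10:18720717-18735216 (minus strand), in a genome build it does not name. Its CPM was 519, 467, 343, 358 and 268 in Ncr1-WT replicates 1 to 5. In Ncr1-KO replicates 1 to 5 it was 340.2, 276, 280.1, 300.1 and 220.3. All 5 Ncr1-KO libraries were under the Ncr1-WT median of 358, but 4 of them lay above the lowest Ncr1-WT library, replicate 5, so the genotypes overlapped. The means were 283 ± 43.4 CPM in Ncr1-KO and 391 ± 101 CPM in Ncr1-WT ILC1s (± SD, n = 5 per genotype, here and for all such values). On the log2 scale the difference was -0.46 (standard error, SE, 0.13, edgeR adjusted p = 0.0888), and a two-sided exact permutation test of log2 CPM gave p = 0.0714. Among single libraries left out, only Ncr1-WT replicate 5 changed the call. It was the only Ncr1-WT library within the Ncr1-KO range, so leaving it out had to end the overlap and enlarge the difference. Without it the log2 fold change was -0.57, the adjusted p in the same edgeR test was 0.00907 and the gene was called lower. Without Ncr1-KO replicate 1, the highest of its genotype, the log2 fold change was -0.54 with an adjusted p of 0.0558 in edgeR's test. Without Ncr1-WT replicate 1, by contrast, the log2 fold change was -0.34 with an adjusted p of 0.250 in edgeR's test. Over all alternatives that were tried, the adjusted p lay between 0.00169 and 0.316.

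*Tnfaip3* was also the most variable of the 9 genes between libraries of the same genotype. Its coefficient of variation was 25.8% in Ncr1-WT ILC1s, higher than that of 99.5% of the 4218 genes with a mean of at least 50 CPM, for which the median was 7.07%. In Ncr1-KO ILC1s it was 15.3%, higher than that of 94.9% of those genes.

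Early response genes are switched on in lymphocytes within minutes of a stimulus. The 13 listed genes summed to 4342, 3865, 2942, 3246 and 2152 CPM in Ncr1-WT replicates 1 to 5, and to between 2337 and 2780 CPM in Ncr1-KO libraries. Replicates 1 and 2 of Ncr1-WT were highest in both *Tnfaip3* and this sum. Replicate 5 of Ncr1-WT was lowest in the sum of all 10 libraries and lowest of its genotype in *Tnfaip3*. Of the 13 genes, 12 had a log2 fold change below 0, beside 49.3% of all tested genes, and 2 were called lower, beside 0.532% of all tested genes, *Fos* and *Zfp36* (log2 fold changes of -1.21 and -0.58, edgeR adjusted p = 0.0377 and 0.0179). The median log2 fold change of the 13 was -0.46. These calls depended on single libraries. Without Ncr1-KO replicate 3 or Ncr1-WT replicate 1, 0 of the 13 were called, as with DESeq2, and without Ncr1-WT replicate 5, 5 were. Across the 10 libraries, with each genotype's mean subtracted, Pearson's r between *Tnfaip3* and single genes of the list ran from -0.007 for *Egr1* to 0.87 for *Junb*, a description over libraries that share their scaling. The early response gene with the most counts, *Junb*, had 498 to 904 CPM in Ncr1-WT and 454 to 571 CPM in Ncr1-KO libraries. Its log2 fold change was -0.46 (edgeR adjusted p = 0.0334), short of the fold limit for a call. With *Junb*, 3 of the 13 genes had an adjusted p under 0.05 and lower values, beside 0.785% of all tested genes. The part of early response activity in the *Tnfaip3* values was not tested.

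**Figure D3:**
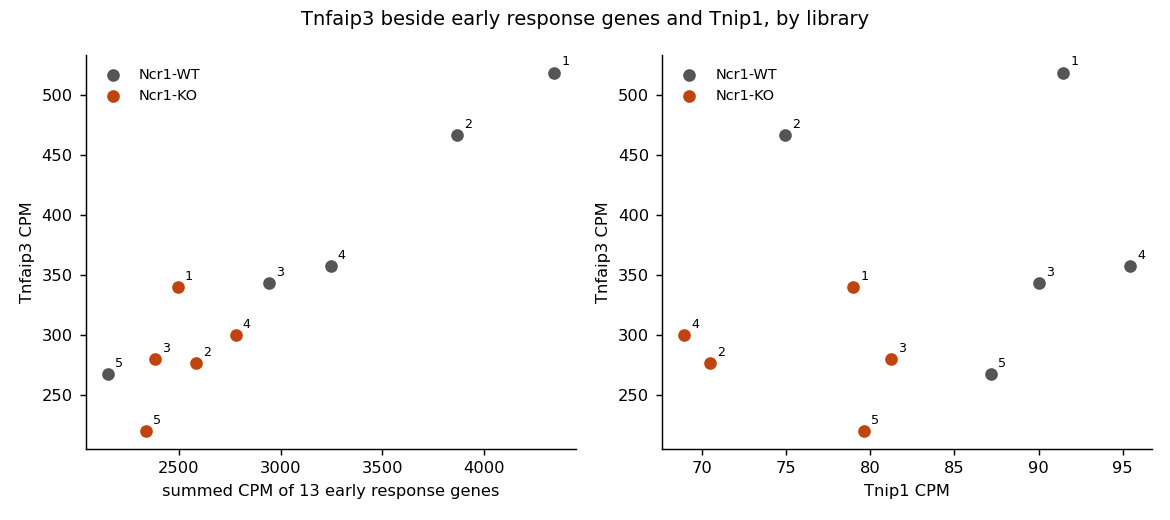
*Tnfaip3* CPM of each library against the summed CPM of 13 early response genes (left) and against *Tnip1* CPM (right), with replicate numbers (grey, Ncr1-WT; orange, Ncr1-KO). Axes do not start at 0. Ncr1-WT replicates 1 and 2 are highest on both axes of the left panel, and Ncr1-WT replicate 5 lies to the left of all Ncr1-KO libraries there, at a *Tnfaip3* level within their range.

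The genes whose log2 CPM followed *Tnfaip3* most closely, after each genotype's mean was subtracted, were *Mllt11*, *Klhl20*, *Eif2s3y*, *Anapc2* and *Sqstm1*. Pearson's r over the 10 libraries was 0.96, 0.93, 0.93, 0.92 and 0.92, with Spearman's rho between 0.83 and 0.99. These are the 5 highest of all tested genes and are given as a description, over libraries that share the scaling to their totals. Without the 2 libraries farthest from the median, Ncr1-WT replicates 1 and 5, r was between 0.84 and 0.95. None of the 5 differed between genotypes past the threshold, the smallest adjusted p of edgeR being 0.185 for *Sqstm1*, the gene of the ubiquitin receptor p62. *Eif2s3y* is Y-linked and was at 88.4 to 108 CPM in all 10 libraries, so that each held RNA of male mice. Whether RNA of female mice was present as well was not tested.

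*Tnip1* encodes ABIN1, which binds linear ubiquitin and A20 and restrains IKK. It is listed at chr11:54724289-54776442 (minus strand). The Ncr1-WT replicates 1 to 5 had 91.4, 75.0, 90.0, 95.4 and 87.2 CPM, and the Ncr1-KO replicates 1 to 5 had 79.0, 70.5, 81.2, 68.9 and 79.6 CPM. All 5 Ncr1-KO libraries were below the Ncr1-WT mean, and only Ncr1-WT replicate 2 reached into their range. The means were 75.8 ± 5.69 and 87.8 ± 7.78 CPM (n = 5), with a log2 fold change of -0.21 (SE 0.08, edgeR adjusted p = 0.250). The two-sided exact permutation test of this single gene gave p = 0.0317, before any adjustment for the number of genes.

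Within each library, *Tnfaip3* exceeded *Tnip1* per exon length in every case. The ratio was 3.77, 4.13, 2.53, 2.49 and 2.04 in Ncr1-WT replicates 1 to 5, and 2.86, 2.60, 2.29, 2.89 and 1.84 in Ncr1-KO replicates 1 to 5. The Ncr1-WT replicates 1 and 2 stood above all other libraries, while the remaining 3 lay within the Ncr1-KO range.

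**Figure D4:**
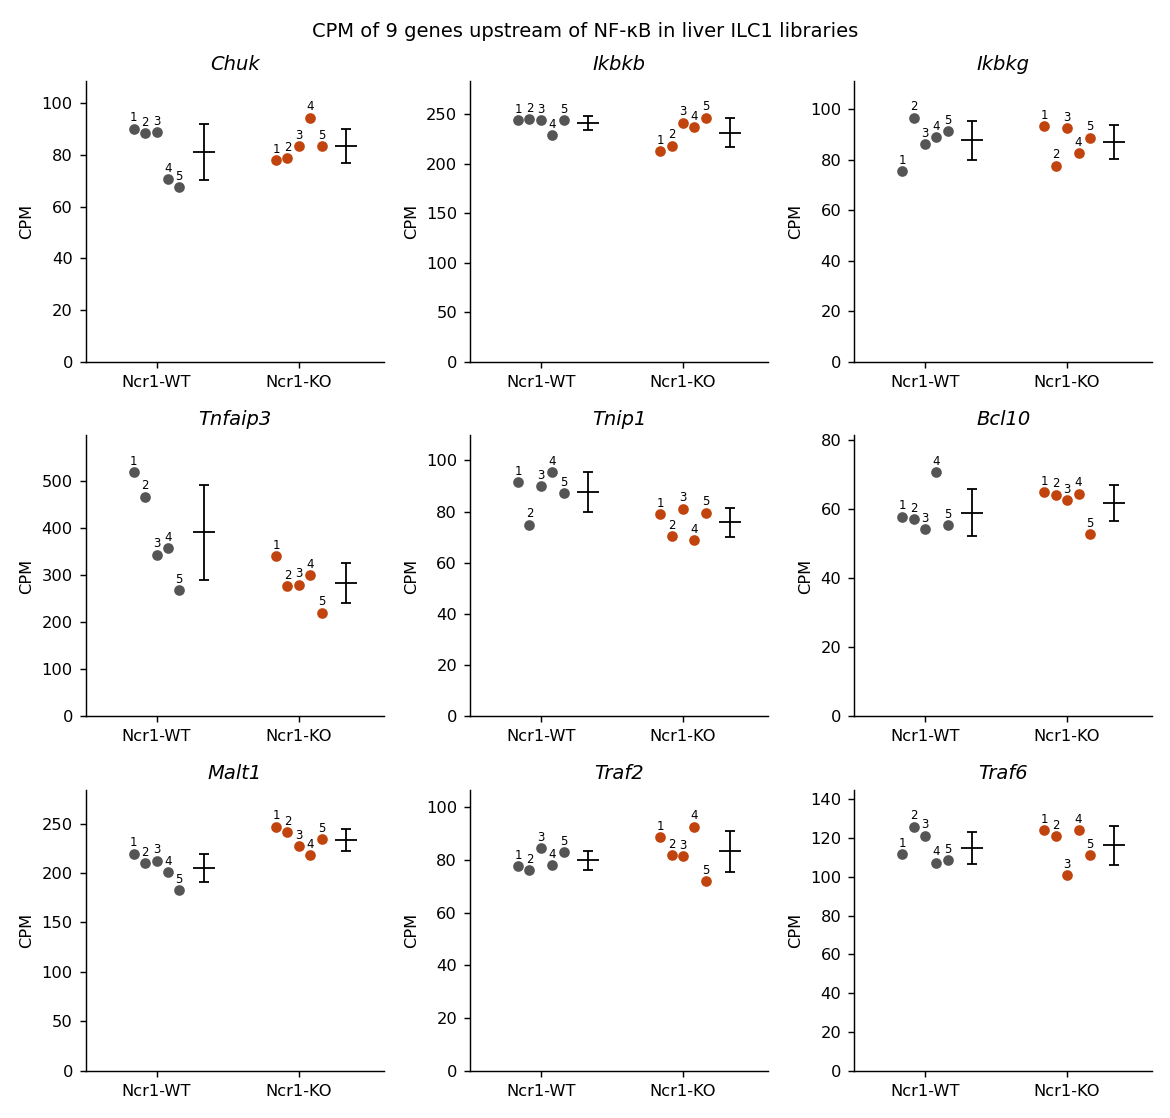
CPM of each gene in each library, numbered by replicate (grey, Ncr1-WT; orange, Ncr1-KO), with the mean and SD of 5 libraries in black. All axes start at 0. *Tnfaip3* and *Tnip1* have lower means and *Malt1* a higher mean in Ncr1-KO ILC1s, and the genotypes overlap in every panel.

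*Malt1* encodes the paracaspase that both scaffolds ubiquitin ligases and cleaves A20 and other inhibitors. It is listed at chr18:65590651-65638446 (plus strand). It had 219.6, 210.0, 213, 201 and 183 CPM in Ncr1-WT replicates 1 to 5. In Ncr1-KO replicates 1 to 5 it had 247, 241, 228, 218 and 235 CPM. The direction was opposite to that of *Tnfaip3*, with all 5 Ncr1-KO libraries above the Ncr1-WT mean and 4 of them above every Ncr1-WT library. Only Ncr1-KO replicate 4, at 218 CPM, and Ncr1-WT replicate 1, at 219.6 CPM, overlapped. The means were 234 ± 11.2 and 205 ± 14.2 CPM (n = 5). Its log2 fold change was 0.19 (SE 0.06, edgeR adjusted p = 0.152). The two-sided exact permutation test of the gene alone gave p = 0.0159, before any adjustment for the number of genes, where the smallest p that 5 libraries against 5 allow is 0.00794.

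*Bcl10*, at chr3:145587226-145597328 (plus strand), gave no such shift. Its CPM was 57.9, 57.1, 54.2, 70.8 and 55.3 in Ncr1-WT replicates 1 to 5 and 64.9, 64.3, 62.6, 64.5 and 52.8 in Ncr1-KO replicates 1 to 5. A single library of each genotype ran against the others, Ncr1-WT replicate 4 being the highest of all 10 and Ncr1-KO replicate 5 the lowest. Its log2 fold change was 0.07 (95% interval -0.12 to 0.25, edgeR adjusted p = 0.857). The ratio of *Bcl10* to *Malt1* per exon length was 0.678 ± 0.0658 in Ncr1-KO and 0.739 ± 0.101 in Ncr1-WT ILC1s (n = 5), and its ranges overlapped.

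None of the 3 IKK subunits differed past the threshold. *Ikbkb* (IKKβ), at chr8:23769677-23817055 (minus strand), had 244, 245, 244, 229 and 244 CPM in Ncr1-WT replicates 1 to 5. The Ncr1-KO replicates 1 to 5 had 213, 219, 242, 237 and 247 CPM. Its Ncr1-WT libraries were close to each other, with a coefficient of variation of 2.87%, and 4.43% of genes with a mean of at least 50 CPM had a lower one. Ncr1-KO replicates 1 and 2 lay below every Ncr1-WT library, and the other 3 did not. On the log2 scale, Ncr1-KO minus Ncr1-WT was -0.06 (95% interval -0.18 to 0.06, edgeR adjusted p = 0.777).

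*Chuk* encodes IKKα, the subunit that also drives the non-canonical NF-κB pathway downstream of NIK. It is listed at chr19:44147824-44181967 (minus strand). It had 90.2, 88.5, 88.7, 70.8 and 67.7 CPM in Ncr1-WT replicates 1 to 5 and 78.0, 78.7, 83.5, 94.4 and 83.5 CPM in Ncr1-KO replicates 1 to 5. The Ncr1-WT replicates 4 and 5 lay below all Ncr1-KO libraries, and the other 3 lay above all Ncr1-KO libraries but replicate 4. This gave a log2 fold change of 0.04 (95% interval -0.14 to 0.23, edgeR adjusted p = 0.923), and it changed sign when Ncr1-KO replicate 4 or Ncr1-WT replicate 4 or 5 was left out.

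*Ikbkg* (NEMO), at chrX:71638630-71699117 (plus strand), had 75.5, 96.6, 86.2, 88.8 and 91.2 CPM in Ncr1-WT replicates 1 to 5. It had 93.3, 77.7, 92.5, 82.5 and 88.7 CPM in Ncr1-KO replicates 1 to 5, entirely within the Ncr1-WT range. The log2 fold change was -0.01 (95% interval -0.17 to 0.15, edgeR adjusted p = 0.973), and its sign changed when single libraries were left out. The table lists *G6pdx* on the opposite strand within the span of *Ikbkg*, and the library kit does not mark strand, so some reads of the overlap could belong to either gene. Per exon length, *Chuk* stood at 0.468 ± 0.0298 of *Ikbkb* in Ncr1-KO and 0.435 ± 0.0526 in Ncr1-WT ILC1s, and *Ikbkg* at 0.236 ± 0.0229 and 0.228 ± 0.0215 of *Ikbkb* (n = 5). Both ratios overlapped between the genotypes.

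*Traf2*, a ligase recruited to TNF receptors, is listed at chr2:25373502-25402460 (minus strand). It had 77.5, 76.1, 84.3, 77.9 and 82.9 CPM in Ncr1-WT replicates 1 to 5 and 88.5, 81.6, 81.5, 92.6 and 71.9 CPM in Ncr1-KO replicates 1 to 5. Ncr1-KO libraries included both the highest and the lowest of the 10. *Traf6*, the ligase of Toll-like, IL-1 and IL-18 receptor signaling, is listed at chr2:101518577-101541825 (plus strand). It had 112, 126, 121, 107 and 108 CPM in Ncr1-WT and 124, 121, 101, 124 and 111 CPM in Ncr1-KO replicates 1 to 5. The log2 fold changes were 0.06 (95% interval -0.10 to 0.22) for *Traf2* and 0.02 (95% interval -0.14 to 0.17) for *Traf6*, and the latter changed sign when some single libraries were left out. Adjusted p-values were 0.844 and 0.965 in edgeR's quasi-likelihood test. Per exon length, *Traf2* exceeded *Traf6* in all 10 libraries, with a ratio of 1.22 to 1.63.

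The surrounding pathway was described with 41 further genes in 7 groups, of which 37 passed the filter on low counts. Of these 37, edgeR called 0, beside 0.733% of all tested genes, and gave 0 an adjusted p under 0.05, beside 1.35%. An unadjusted p under 0.05 was found for 6 of the 37, or 16.2%, beside 11.4% of all tested genes, with 3 lower and 3 higher. The lower were *Traf1*, *Birc3* and *Map3k14*, which encodes NIK, the kinase of the non-canonical pathway (log2 fold change -0.21, edgeR adjusted p = 0.358). The higher were *Ube2n*, the receptor adaptor *Traf5* (0.23, edgeR adjusted p = 0.379) and *Azi2*, an adaptor of TBK1 (0.15, edgeR adjusted p = 0.320). *Map3k14*, *Traf5* and *Azi2* are named after their values were seen. The log2 fold change was below 0 for 21 genes, or 56.8%, beside 49.3% of all tested genes, and the median was -0.02.

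In the group of CARD scaffolds and protein kinase C enzymes that start CBM assembly, *Prkcq*, the protein kinase C isoform best known from T cells, had 234 ± 12.3 CPM in Ncr1-KO and 237 ± 10.3 CPM in Ncr1-WT ILC1s (n = 5). Its log2 fold change was -0.02 (95% interval -0.14 to 0.09). *Prkcb*, the isoform best known from B cells, had a value of -0.03 (95% interval -0.13 to 0.07) and *Prkcd* of -0.06 (95% interval -0.23 to 0.11). *Card9* and *Card14* had at most 6 and 4 counts in any library and were not tested. These genes of the group were chosen for mention after their values were seen.

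The TAK1 complex is the kinase that activates IKK, and *Map3k7*, which encodes TAK1, had a log2 fold change of 0.08 (95% interval -0.07 to 0.24). In this group *Ube2n*, the ubiquitin-conjugating enzyme Ubc13 that works with TRAF6, had 17.7 ± 2.33 CPM in Ncr1-KO and 12.8 ± 2.30 CPM in Ncr1-WT ILC1s (n = 5), chosen for mention after its value was seen. Its log2 fold change was 0.47 (SE 0.15, edgeR adjusted p = 0.144), the largest upward value among the 37 genes.

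In the TNF receptor complex, *Traf1*, which binds TRAF2 and is induced by NF-κB, was the one gene of the 37 with non-overlapping CPM, a share of 2.70% beside 3.11% of all tested genes. It had 123 ± 11.2 CPM in Ncr1-KO and 146 ± 5.82 CPM in Ncr1-WT ILC1s (n = 5). The log2 fold change was -0.25 (SE 0.07, edgeR adjusted p = 0.0713). DESeq2 gave -0.25 with an adjusted p of 0.0182, and without Ncr1-KO replicate 3 edgeR's test gave -0.30 with an adjusted p of 0.0420. Over all alternatives the adjusted p lay between 0.0182 and 0.174. *Birc3* (cIAP2), an NF-κB-induced ligase of the same complex, had a log2 fold change of -0.19 (95% interval -0.36 to -0.02, edgeR adjusted p = 0.363), and *Ripk1*, the kinase scaffold, of 0.08 (95% interval -0.07 to 0.23).

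The remaining groups held no gene past the threshold either. The 3 subunits of the linear ubiquitin ligase, *Rnf31*, *Rbck1* and *Sharpin*, had log2 fold changes of -0.09, -0.02 and -0.09. *Cyld*, a deubiquitinase that opposes IKK activation as A20 does, had 310.1 ± 13.6 CPM in Ncr1-KO and 286 ± 27.4 CPM in Ncr1-WT ILC1s (n = 5), a log2 fold change of 0.11 (95% interval -0.02 to 0.25). The 8 tested deubiquitinases and A20 partners lay between -0.21 and 0.15. The 3 tested IRAK kinases lay between -0.12 and 0.11, and *Irak3*, not tested, had at most 29 counts in any library. It was at 0 to 0.18 CPM in Ncr1-KO and 0.22 to 1.28 CPM in Ncr1-WT libraries, close to the limit of detection. Among the IKK-related kinases, *Tbk1* had a log2 fold change of 0.07 (95% interval -0.08 to 0.21), and the 5 genes of the group lay between -0.21 and 0.15.

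**Figure D5:**
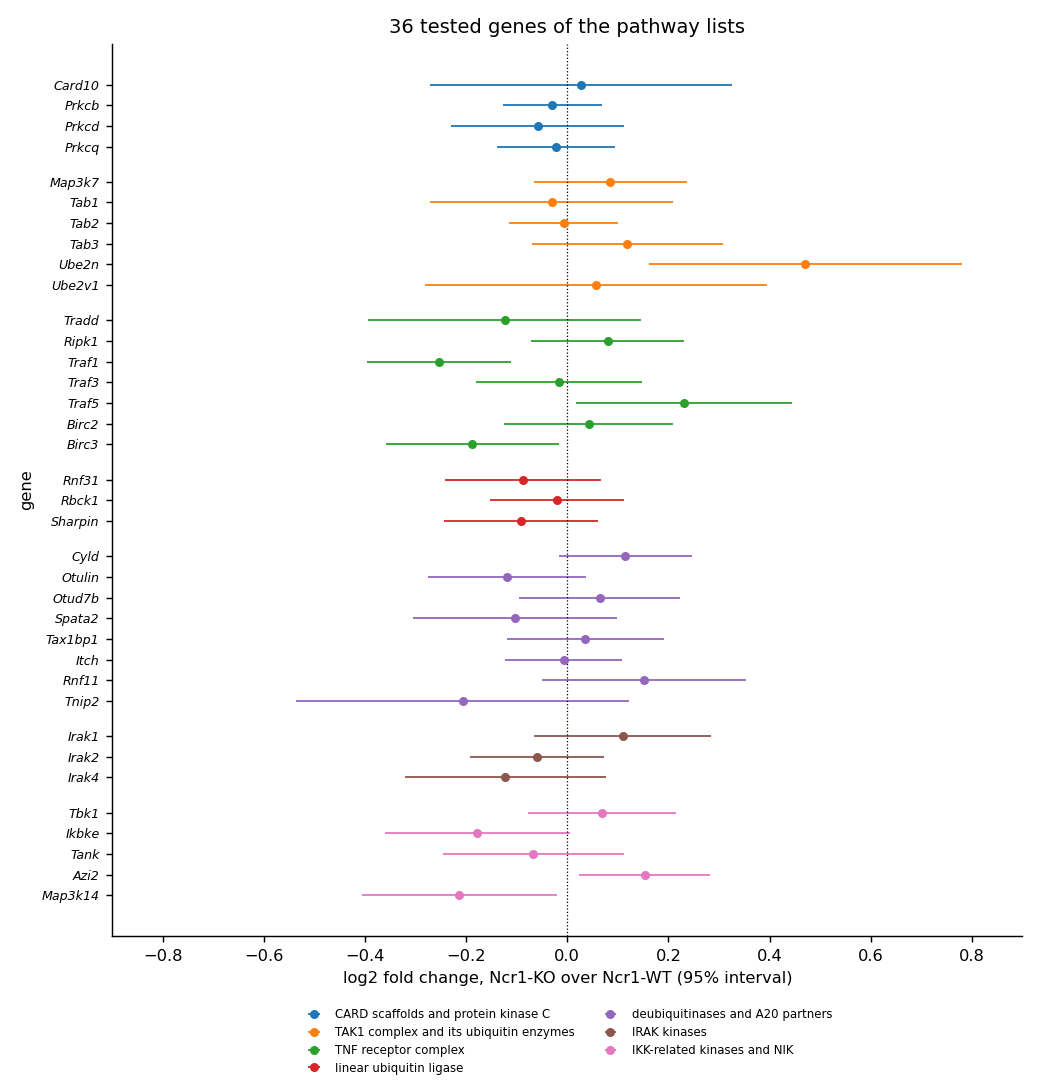
Log2 fold change in Ncr1-KO over Ncr1-WT ILC1s of 36 tested pathway genes, colored by group, with 95% intervals from edgeR's quasi-likelihood fit (5 libraries each). Most intervals include 0, *Ube2n* is farthest to the right and *Traf1* farthest to the left, and none of the 36 genes passed the adjusted threshold.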

How the data were processed

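Read counts of 10 RNA-seq libraries were analysed, 5 labelled Ncr1-KO and 5 labelled Ncr1-WT. By the paper's methods, 2 ng of RNA per sample was amplified as cDNA with a SMART-Seq kit and sequenced over 51 cycles, and the authors trimmed reads with Trimmomatic and FASTP, mapped them with STAR and counted them with HTSeq at default parameters. The authors deposited whole-number counts without normalization for 24564 genes, with gene positions and exon lengths. The methods name mm10, but 0 of the 9 genes start where the GRCm38.p6 annotation places them, so positions are given as listed, with no build. No sequences were used here.

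After filterByExpr (11463 genes kept) and TMM scaling, edgeR 4.0.16 (R 4.3.3) was used for quasi-likelihood tests with genotype as the one term and Benjamini-Hochberg adjustment over all tested genes. Standard errors and 95% intervals were derived from the F statistic. Thresholds are those of the paper's methods. For the 9 genes, exact permutation tests (two-sided, on log2 CPM) were added. The steps were tested on simulated data, in which changed genes differed by more than any of the 9 genes did. How often differences of the size seen here would be found was not tested. Alternatives were DESeq2 1.42.0, upper-quartile and RLE scaling, the likelihood ratio test, limma-voom (limma 3.58.1), other filters, a replicate block, a fold limit of 2, TPM, raw totals, and leaving out libraries.

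The libraries held 15796253 to 22623133 counts, so 3 counts are worth 0.132 to 0.190 CPM, which covers counting error only, since PCR copies are not independent molecules. Same-genotype libraries differed by more than sampling noise (chi-square per gene 9.18 to 24.0 over 20 pairs). This does not show whether the libraries came from separate mice, and each was counted as 1 sample. Of the listed genes, 1 ILC1 marker was not analysed here. Named genes are the 9 genes, *Ncr1*, well-known pathway genes (*Map3k7*, *Ripk1*, *Birc3*, *Cyld*, *Tbk1*, *Traf1*), pathway genes past the adjusted threshold (0 found), the 5 genes most like *Tnfaip3* and the most abundant gene of each marker list. The values of 1 tested pathway gene are not reported here. Other named genes were added after their values were seen. The genes and lists were chosen with earlier results of these data known.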

Additional observations from a re-analysis of the deposited data

Results flagged for a closer look

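In 52 sets of 5 same-genotype values, the highest and the lowest value were compared with their neighbour, and the gap was divided by the full range (limit 0.71). It was exceeded in 7 sets, where chance alone gives about 2.6. *Bcl10* was 70.8 CPM in Ncr1-WT replicate 4, against 57.9 CPM in the next library, and 52.8 CPM in Ncr1-KO replicate 5, against 62.6 CPM in the next. *Ikbkb* was 229 CPM in Ncr1-WT replicate 4, against 244 CPM in the next. The hepatocyte list summed to 54.3 CPM in Ncr1-KO replicate 3 and 31.5 CPM in Ncr1-WT replicate 1, against 4.88 and 5.60 CPM in the next libraries. The neutrophil list summed to 10.5 CPM in Ncr1-KO replicate 3, with 1.72 CPM next. The erythroid list, of which *Alas2* alone had counts, was 9.14 CPM in Ncr1-WT replicate 5, against 1.85 CPM.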

How the results depend on the processing

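*Ncr1* stayed called under all alternatives, with log2 fold changes between -3.12 and -2.80. Over all genes, 84 were called, 131 without a filter on low counts, 138 with the likelihood ratio test, 23 with a fold limit of 2, and between 60 and 98 when 1 library was left out. Without Ncr1-WT replicate 1, 40 genes were called lower, against 61. Of the 9 genes, 0 were called in 19 of 20 alternatives, and between 0 and 1 when 1 library was left out. The exception was *Tnfaip3* without Ncr1-WT replicate 5. An adjusted p under 0.05 was met by 1 of the 9, *Tnfaip3*, without a filter (edgeR adjusted p = 0.00169), with the likelihood ratio test (0.0323), with the replicate block (0.00461) and without Ncr1-WT replicate 5 (0.00907), in each case for 1 gene. DESeq2 gave 0.242 and limma-voom 0.0989. Without Ncr1-WT replicate 1 and Ncr1-KO replicate 3 together, which had the most hepatocyte RNA, the log2 value of *Tnfaip3* was -0.34 (edgeR adjusted p = 0.316) and 0 of the 9 genes were called. Of the 37 tested pathway genes, 1, *Traf1*, had an adjusted p under 0.05 with DESeq2, without a filter, with the likelihood ratio test and without Ncr1-KO replicate 3, and between 0 and 1 did when 1 library was left out. The cause of these shifts was not tested.

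CPM without overlap was met by 1 of the 9 genes on raw totals (*Malt1*), and by between 0 and 1 when 1 library was left out. That gene was *Malt1* without Ncr1-KO replicate 4 or Ncr1-WT replicate 1, *Tnip1* without Ncr1-WT replicate 2 and *Tnfaip3* without Ncr1-WT replicate 5. *Chuk*, *Ikbkg* and *Traf6* changed sign around 0 in 3, 4 and 5 alternatives. With 1 library left out, their log2 fold changes ranged from -0.016 to 0.081, from -0.063 to 0.026 and from -0.0093 to 0.063. The limma-voom value of *Traf6* was -0.0068. The other 6 genes kept their direction in all 19 alternatives, and the ranks by level per length were the same with TPM.

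The replicate numbers are shared by both genotypes, but the labels do not say that they mark pairs. Over all tested genes, same-numbered libraries did not deviate together (r between -0.03 and 0.05). Since 1 of 5 correlated best with its own number, the block is given only as an alternative. *Tnfaip3* itself, however, was highest in replicate 1 and lowest in replicate 5 of both genotypes. With the block its log2 fold change was -0.44 (SE 0.07, edgeR adjusted p = 0.00461), against an SE of 0.13 without the block. This was short of the fold limit, so that 0 of the 9 genes were called with the block. Their direction stayed as it was.

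The 9 genes had at least 887 counts in each library. Over all tested genes, same-genotype libraries differed by more than sampling noise. The share of counting error in the spread of the 9 genes was not tested.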
